A study of Mus musculus with 6 samples.

Results

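The 44 collagen genes described here are those whose mouse symbol is Col, a number, a and a number, such as Col1a1. They were taken from 19938 genes measured on 6 microarrays, with each gene read from a probe set that carries 1 gene symbol, and they match all 44 genes of that name in the RefSeq annotation. The 6 arrays are 3 of Fezf1+/- and 3 of Fezf1-/- cells from the main olfactory epithelium (MOE) of mouse embryos at E18.5, on a C57BL/6 background, each labelled from 100 ng of total RNA. The cells were sorted for EGFP, which the targeted Fezf1 allele expresses from the Fezf1 promoter, so both groups carry at least 1 targeted allele and no array comes from wild-type cells. The labels do not tell whether an array holds 1 embryo or a pool, and a p-value here reflects only how far the samples spread, which may be technical. Values are the deposited log2 signals on Affymetrix Mouse Gene 1.0 ST arrays, and a difference of 1 log2 unit is 2-fold.

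Collagens are secreted or membrane proteins whose chains, the same or different ones, wind around each other into a rod-like trimer. Fibrillar collagens build the fibrils of connective tissue and bone, with a separate set in cartilage, while type IV collagen forms the sheet-like network of basement membranes under epithelia and around vessels. Type VI collagen forms beaded filaments in connective tissue, and further collagens decorate fibrils or span the membrane. In the nose, the olfactory epithelium lies on a basement membrane over a lamina propria with fibroblasts, vessels and glia, close to the cartilage and bone of the nasal skeleton.

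Fezf1, the targeted gene, stood between 11.12 and 11.30 on the Fezf1+/- arrays and between 5.56 and 6.28 on the Fezf1-/- arrays (difference -5.31, SE 0.19, limma adjusted p = 0.000755). Some genes of olfactory neurons were bright on every array, though all 11 olfactory neuron markers were lowest on Fezf1-/- 1. Some sustentacular genes were bright as well: over the arrays, Cyp2g1 stood between 10.76 and 11.90 and Cbr2 between 11.89 and 13.00. Gap43, of growing olfactory axons, stood between 11.44 and 12.79, and Omp, of mature olfactory neurons, between 10.77 and 12.12 on 5 arrays and at 9.09 on Fezf1-/- 1. That array stood apart: its correlations with the others across genes were 0.905 to 0.935, against 0.975 to 0.995 among the other 5. Array medians lay between 5.82 and 5.95 and lower quartiles between 4.30 and 4.44. The genotype comparison is therefore given with and without Fezf1-/- 1.

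On Fezf1-/- 1, 14 of the 44 collagen genes stood at least 2-fold above the highest of the other 5 arrays, against 4.00% of all genes, and 0 stood at least 2-fold below the lowest (2.98% of all genes). These 14 were Col1a1, Col1a2, Col3a1, Col5a2, Col11a1, Col4a1, Col4a2, Col8a1, Col8a2, Col6a1, Col6a2, Col6a3, Col12a1 and Col14a1. The same count was 0 on each of the other arrays, against 0.00502%, 0.150% and 0.145% of all genes on Fezf1+/- 1, 2 and 3 and 0.0451% and 0% on Fezf1-/- 2 and 3. Fezf1-/- 1 was the highest array for 36 of 44 collagen genes, against 29.2% of all genes, and for 31 and 28 after quantile normalization and median centring. Just inside the 2-fold margin stood Col4a2 and Col8a2, at 1.15 and 1.20 above the highest other array, and just outside stood Col9a1 and Col2a1, both at 0.86, and Col26a1 at 0.83. This is a description of 1 array, with no test. In sorted bulk RNA, more cells of a type and more RNA per cell cannot be told apart.

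**Figure D1:**
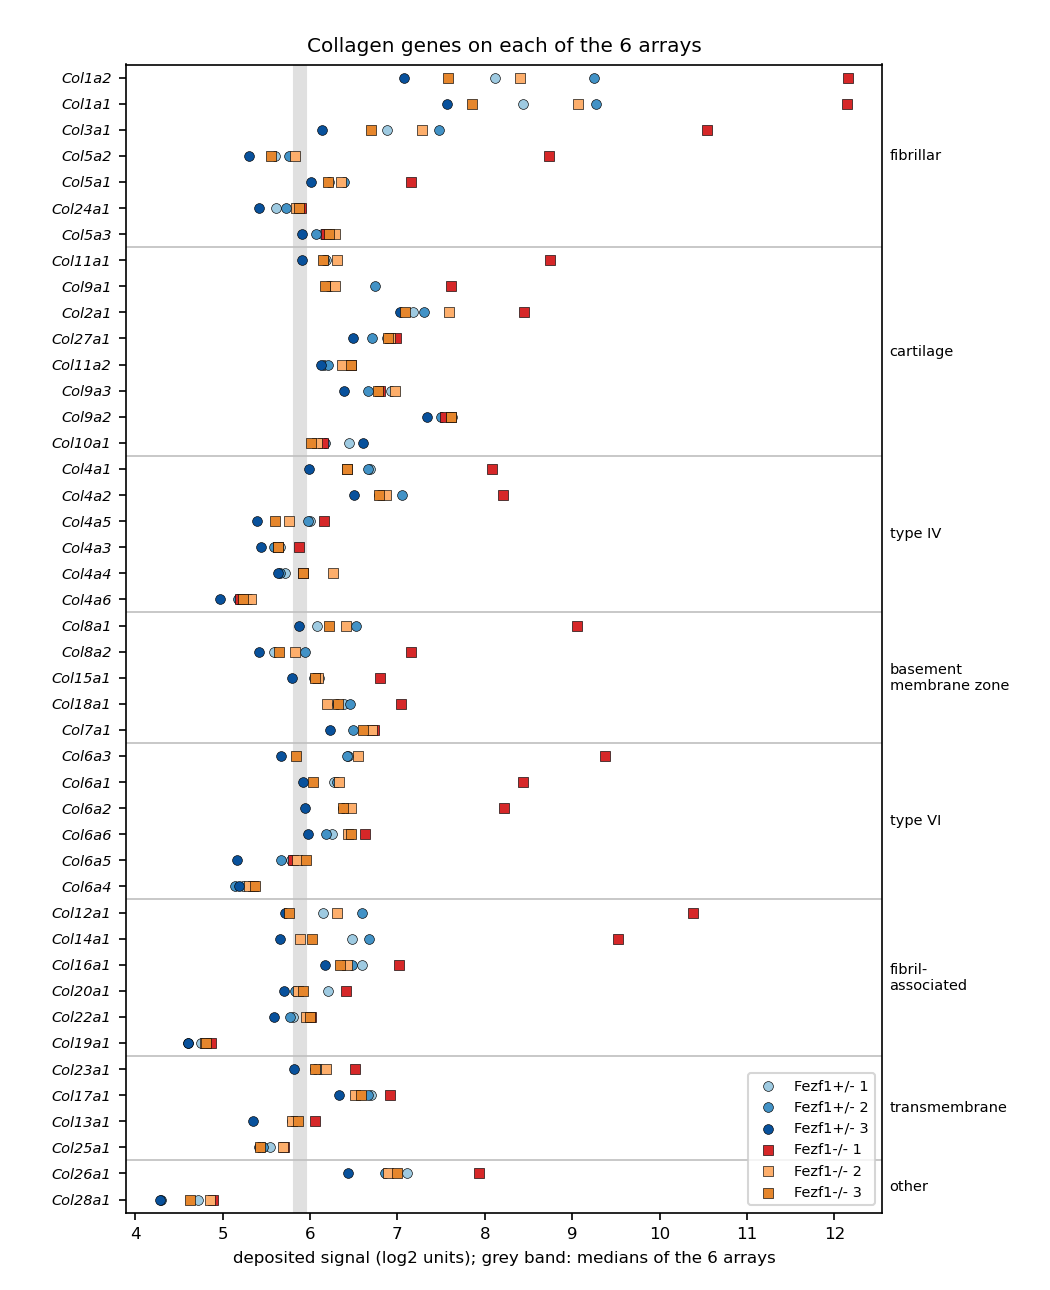
Deposited signal (log2 units) of each of the 44 collagen genes on the 6 arrays, by class, with circles for Fezf1+/- and squares for Fezf1-/-. The red square, Fezf1-/- 1, stands far to the right for 14 genes, reaching 12.15 for Col1a2 against 7.08 to 9.25 on the other arrays, and lies among the others for genes such as Col9a2.

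Promoters of 3 of these genes, from 3 classes, and of 1 cartilage gene that stood level on all arrays are shown so that the sequence upstream of genes that stood high together can be compared. Each is the 250 bases before the RefSeq start in GRCm38.p6, 5′ to 3′, with capitals marking 3 motifs on either strand: the CCAAT box, the TATA box written TATAAA, and the GC box written GGGCGG. None of the 3 overlaps another in these windows. They lie at chr6:4505368-4505617 (+) for Col1a2, chr1:45311288-45311537 (+) for Col3a1, chr10:76726045-76726294 (-) for Col6a1 and chr4:121039316-121039565 (+) for Col9a2.
Col1a2: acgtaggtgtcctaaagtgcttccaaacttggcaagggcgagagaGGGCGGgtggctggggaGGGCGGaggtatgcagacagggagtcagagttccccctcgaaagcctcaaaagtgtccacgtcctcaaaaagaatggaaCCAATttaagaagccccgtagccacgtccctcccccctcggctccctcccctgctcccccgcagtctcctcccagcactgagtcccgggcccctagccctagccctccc
Col3a1: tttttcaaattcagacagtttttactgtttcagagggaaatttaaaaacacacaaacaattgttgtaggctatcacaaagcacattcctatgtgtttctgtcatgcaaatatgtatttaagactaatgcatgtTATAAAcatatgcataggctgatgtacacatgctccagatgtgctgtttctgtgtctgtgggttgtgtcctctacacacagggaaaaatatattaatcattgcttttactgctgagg
Col6a1: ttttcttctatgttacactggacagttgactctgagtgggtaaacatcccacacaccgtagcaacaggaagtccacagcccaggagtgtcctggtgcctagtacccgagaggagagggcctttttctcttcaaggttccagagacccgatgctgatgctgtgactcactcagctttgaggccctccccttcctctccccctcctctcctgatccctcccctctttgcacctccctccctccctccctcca
Col9a2: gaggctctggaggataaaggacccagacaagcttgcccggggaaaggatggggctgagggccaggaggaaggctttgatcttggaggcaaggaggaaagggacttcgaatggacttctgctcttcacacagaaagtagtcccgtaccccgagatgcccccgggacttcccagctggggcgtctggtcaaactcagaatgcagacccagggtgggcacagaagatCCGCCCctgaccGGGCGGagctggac
Col1a2 holds 1 CCAAT box and 2 GC boxes, Col3a1 holds 1 TATA box, Col9a2 holds 2 GC boxes, and Col6a1 holds 0 of the 3 motifs. No motif was common to the 3 genes that stood high. Of 35 collagen promoters, 1 for each collagen gene with a promoter sequence at hand, 60% held the GC box, against 32.7% of all 32851 promoters. The 32851 were not limited to 1 per gene, so the 2 shares are not fully alike. That share was 60% both among the 10 promoters of genes in the group of 14 and among the other 25. The CCAAT box was in 34.3% of collagen and 33.8% of all promoters, and the TATA box in 14.3% and 12.4%. These matches are letters in a window and show neither a bound factor nor a cause.

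The fibrillar collagens of mesenchyme and bone held the widest gaps between arrays. Col1a1, which encodes the more abundant chain of the type I collagen of bone, skin and tendon, stood at 8.44, 9.28 and 7.57 on the Fezf1+/- arrays and at 12.14, 9.07 and 7.86 on the Fezf1-/- arrays. Col1a2, the other type I chain, stood at 8.11, 9.25 and 7.08 and at 12.15, 8.40 and 7.58. Apart from the first Fezf1-/- array, the genotypes overlapped for both chains. Col3a1, of the type III fibrils of soft connective tissue and vessels, stood at 6.88, 7.48 and 6.14 and at 10.54, 7.29 and 6.70. Col5a2, a chain of the type V collagen that starts type I fibrils, stood at 5.59, 5.76 and 5.31 and at 8.74, 5.83 and 5.56. Against the mean of the other 5 arrays, Fezf1-/- 1 was 13.0-fold higher for Col1a1, 16.8-fold for Col1a2, 12.5-fold for Col3a1 and 8.76-fold for Col5a2. The remaining 3 of 7 fibrillar genes shifted less. Col5a1, the partner chain of Col5a2, was 1.89-fold higher there (7.16 against 6.01 to 6.39), while Col5a3 and Col24a1, a fibrillar collagen of developing bone, were 1.04-fold and 1.15-fold higher. The median shift of the class was 3.13, against -0.01 over all genes.

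The fibril-associated and type VI collagens, which coat or lie beside such fibrils, held 5 more of the 14. Col12a1, which links fibrils in dense connective tissue, stood at 6.15, 6.60 and 5.72 on the Fezf1+/- arrays and at 10.38, 6.30 and 5.76 on the Fezf1-/- arrays. Its 19.3-fold excess over the mean of the other arrays was the largest of the 44 genes. Col14a1, a related fibril-associated collagen, stood at 6.48, 6.68 and 5.66 and at 9.52, 5.89 and 6.02. The other 4 of the 6 measured fibril-associated genes, Col16a1, Col19a1, Col20a1 and Col22a1, had shifts between 0.15 and 0.62. Type VI collagen joins the products of Col6a1, Col6a2 and Col6a3. Col6a1 stood at 6.27, 6.31 and 5.93 and at 8.44, 6.33 and 6.03, and Col6a3 at 6.44, 6.43 and 5.67 and at 9.37, 6.55 and 5.84. Col6a2 stood at 6.37, 6.38 and 5.94 and at 8.22, 6.47 and 6.38, and here the genotypes did not overlap, by a margin of less than 0.01. The 3 genes were 4.80-fold, 9.10-fold and 3.76-fold higher on Fezf1-/- 1, in the order given. Their relatives Col6a4, Col6a5 and Col6a6, which lie next to each other on another chromosome, had shifts of 0.09, 0.12 and 0.37.

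**Figure D2:**
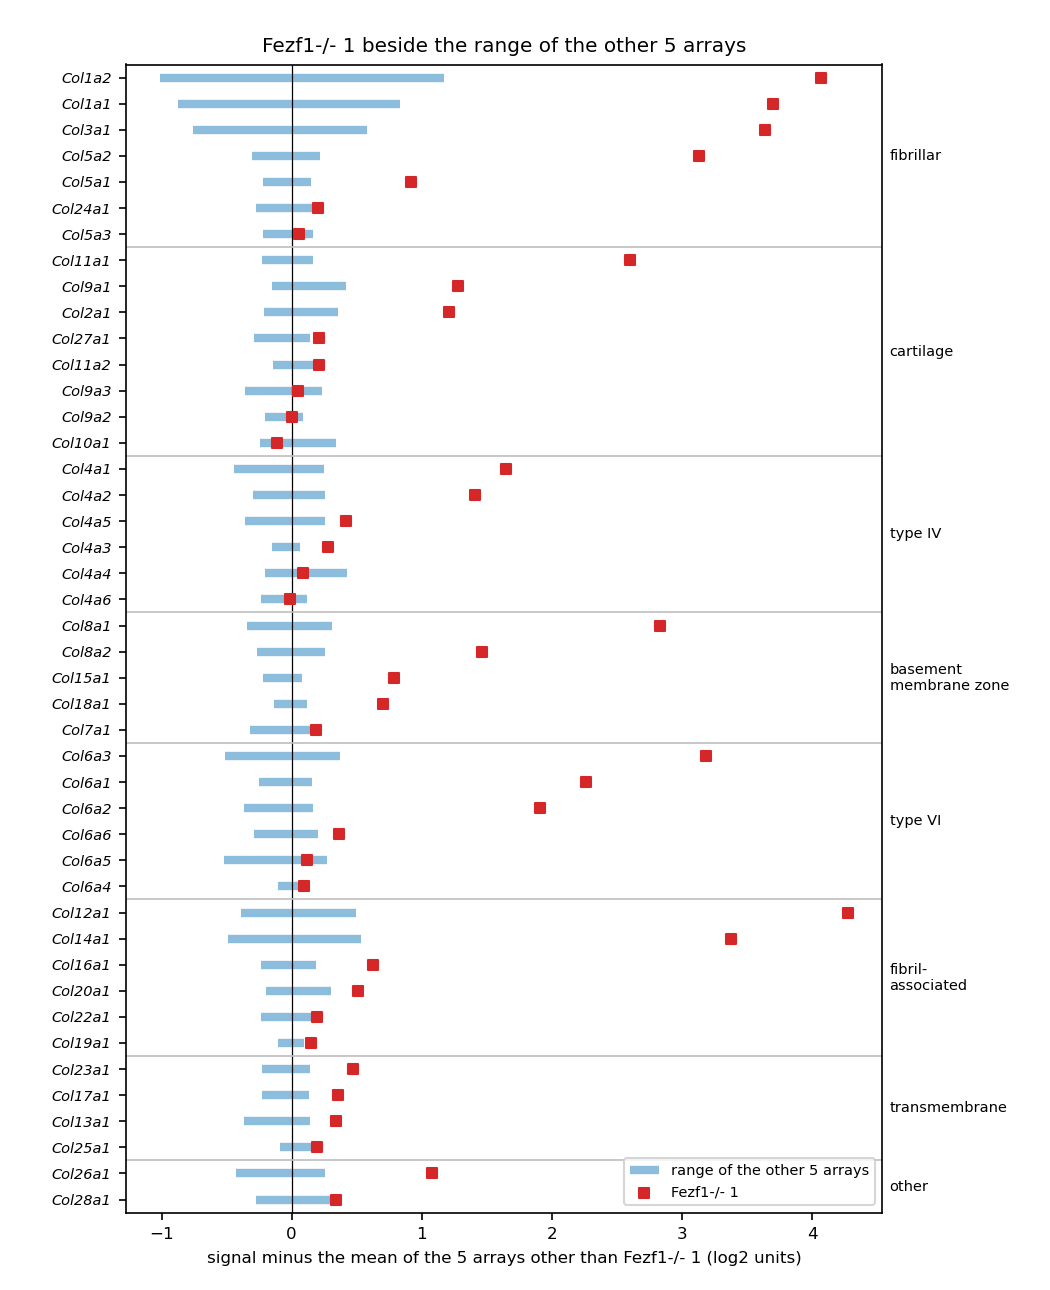
For each of the 44 collagen genes, the signal on Fezf1-/- 1 (red squares) and the range of the other 5 arrays (blue bars), as log2 differences from the mean of those 5. The squares run from -0.11 for Col10a1 to 4.27 for Col12a1, and only 1 of 8 cartilage genes is among the 14 past the 2-fold margin, against 4 of 7 fibrillar genes.

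The cartilage collagens were uneven. Col2a1, the main collagen of cartilage, stood at 7.18, 7.31 and 7.02 on the Fezf1+/- arrays and at 8.45, 7.59 and 7.08 on the Fezf1-/- arrays, so that Fezf1-/- 1 was 2.32-fold above the mean of the others. Col9a1, a chain of the type IX collagen that decorates cartilage fibrils, stood at 6.21, 6.75 and 6.22 and at 7.61, 6.29 and 6.17. Col9a2 and Col9a3, whose products complete the type IX trimer, stood within 7.34 to 7.63 and 6.39 to 6.97 on all 6 arrays, and Fezf1-/- 1 was the highest array for neither. Col11a1, of the type XI collagen within cartilage fibrils and also made by bone and fibroblast cells, stood at 6.19, 6.16 and 5.91 and at 8.74, 6.31 and 6.15, which was 6.07-fold above the mean of the others. Its cartilage partner Col11a2 was 1.15-fold higher, and the fibrillar gene Col27a1 1.16-fold. Col10a1, of hypertrophic cartilage on the way to bone, stood at 6.45, 6.17 and 6.60 and at 6.15, 6.08 and 6.01, with Fezf1-/- 1 inside the range of the other arrays. The median shift of the 8 cartilage genes was 0.21, against 3.13 for the 7 fibrillar genes. The sets were chosen with earlier results known, and the gap between them was not tested.

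Of the 6 type IV genes, which encode the basement membrane network, Col4a1 and Col4a2 were in the group of 14. Their products form the type IV trimer found in nearly all basement membranes, and the genes are neighbours on chromosome 8. Col4a1 stood at 6.69, 6.67 and 5.99 on the Fezf1+/- arrays and at 8.08, 6.42 and 6.43 on the Fezf1-/- arrays. Col4a2 stood at 6.78, 7.06 and 6.51 and at 8.21, 6.87 and 6.79. Fezf1-/- 1 was 3.12-fold and 2.65-fold above the mean of the other arrays, less than for any fibrillar, fibril-associated or type VI gene in that group, and without it the genotypes overlapped for both. Col4a3, Col4a4, Col4a5 and Col4a6, whose products form the restricted type IV trimers of kidney and some other epithelia, had shifts of 0.28, 0.08, 0.42 and -0.01. Col4a5 stood at 6.01, 5.97 and 5.39 and at 6.16, 5.76 and 5.60.

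Among the 5 collagens of the basement membrane zone, the type VIII genes stood highest on Fezf1-/- 1. Col8a1, whose product forms hexagonal networks around vessels and under the corneal endothelium, stood at 6.08, 6.53 and 5.88 on the Fezf1+/- arrays and at 9.05, 6.41 and 6.21 on the Fezf1-/- arrays, a 7.12-fold excess over the mean of the others. Col8a2 stood at 5.59, 5.95 and 5.42 and at 7.15, 5.83 and 5.65, a 2.76-fold excess. Col15a1 and Col18a1, whose products sit on basement membranes and release endostatin-type fragments, were 1.72-fold and 1.63-fold higher. Col15a1 stood at 6.10, 6.05 and 5.80 and at 6.80, 6.10 and 6.06, and Col18a1 at 6.39, 6.46 and 6.31 and at 7.04, 6.20 and 6.32. Fezf1-/- 1 was the highest array for both, as it was by only 0.02 for Col7a1, of the anchoring fibrils under stratified epithelia.

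Transmembrane collagens shifted little. Col17a1, of the hemidesmosomes that fix basal epithelial cells to the basement membrane, stood at 6.69, 6.67 and 6.33 on the Fezf1+/- arrays and at 6.92, 6.52 and 6.59 on the Fezf1-/- arrays. Col13a1, Col23a1 and Col25a1, the last a collagen of neurons, had shifts of 0.34, 0.47 and 0.19. Of the 5 basal cell markers, the shifts against the mean of the others were 0.73 for Krt5, 0.77 for Krt14, 0.46 for Krt15, 1.12 for Trp63 and 0.76 for Icam1, and their part in the collagen levels was not tested. Of the 2 remaining collagens, Col26a1 was 2.11-fold and Col28a1 1.26-fold above the mean of the others.

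Chains of one trimer therefore did not always stand high together on Fezf1-/- 1. The shifts against the mean of the other 5 arrays were 3.70 and 4.07 for the type I pair, 1.64 and 1.41 for Col4a1 and Col4a2, and 2.26, 1.91 and 3.19 for Col6a1, Col6a2 and Col6a3. They were 0.92 and 3.13 for Col5a1 and Col5a2, 2.60 and 0.21 for Col11a1 and Col11a2, and 1.28, 0.00 and 0.05 for the type IX genes Col9a1, Col9a2 and Col9a3. Each shift compares a probe set with itself, and 9 of the 44 genes stood below the array median on all 5 other arrays. The part of probe set brightness in this unevenness was not tested. Neighbouring genes could also part: Col3a1 and Col5a2, adjacent on chromosome 1, had shifts of 3.64 and 3.13, while Col9a1 and Col19a1, adjacent on the same chromosome, had 1.28 and 0.15.

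Among the other 5 arrays most collagen genes varied little. The range over these 5 was below 1 for 40 of 44 genes, as for 93.8% of all genes, and the 4 wider ones were Col1a2 (2.18), Col1a1 (1.71), Col3a1 (1.34) and Col14a1 (1.02). For Col1a1 the arrays ran upwards from Fezf1+/- 3 through Fezf1-/- 3, Fezf1+/- 1 and Fezf1-/- 2 to Fezf1+/- 2. Col1a2, Col3a1, Col5a1 and Col12a1 had that same order, which makes 5 of 44 collagen genes, against 0.697% of all genes. The order was picked after its values were seen, and the genes share arrays, so it is a description. Fezf1+/- 3 was the lowest of the 5 for 39 of 44 collagen genes, against 24.7% of all genes. With median centring the counts were 33 and 12.2%, and with quantile normalization 34 and 19.8%. The median deviation of the 44 genes on that array was -0.26 as deposited, -0.18 centred and -0.19 after quantile normalization.

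The comparison of Fezf1-/- with Fezf1+/- cells asked which genes differ when the cells lack Fezf1, and no collagen gene passed. By limma, 0 of 44 had an adjusted p below 0.05, against 0.552% of all genes, and 6 of 44 had an unadjusted p below 0.05, against 9.48%. Differences were positive for 43 of 44 genes, against 54.8% of all genes, and the median was 0.31, against 0.02. The 4 largest were: Col3a1 at 1.34 (SE 1.02, adjusted p = 0.716), Col12a1 at 1.33 (SE 1.20, adjusted p = 0.747), Col1a1 at 1.26 (SE 1.11, adjusted p = 0.741) and Col1a2 at 1.23 (SE 1.25, adjusted p = 0.766). The SD over the 3 Fezf1-/- arrays was 2.21 for Col1a1 and 2.44 for Col1a2, so these differences lie within the spread between replicates.

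Without Fezf1-/- 1, again 0 of 44 passed (2.66% of all genes), and 5 of 44 had an unadjusted p below 0.05, against 16.3%. None differed by 1 or more, as 2.13% of all genes did. The median difference was 0.13 and 33 of 44 were positive, against 55.3% of all genes. Without Fezf1+/- 3 as well, 25 of 44 (56.8%) were positive, against 55.6% of all genes, and the median was 0.01. Col3a1 was then at 0.16 (SE 0.38), Col1a1 at 0.04 (SE 0.53), Col12a1 at -0.12 (SE 0.27) and Col1a2 at -0.16 (SE 0.59) in the fit without Fezf1-/- 1 alone. Some small differences kept their size. Col4a4 stood at 5.72, 5.66 and 5.63 in Fezf1+/- and at 5.92, 6.26 and 5.92 in Fezf1-/- cells, a difference of 0.36 with all arrays and 0.42 without Fezf1-/- 1 (SE 0.12, adjusted p = 0.161, the lowest of the 44 genes). Col6a6 (0.37 and 0.32) and Col11a2 (0.28 and 0.26) kept theirs too. Col10a1 was the only collagen with a negative difference over all arrays, at -0.32, and stood at -0.36 in the fit without Fezf1-/- 1, where 11 of 44 were negative.

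Genotype groups that did not overlap were seen for 12 genes. The 3 Fezf1-/- values all lay above the Fezf1+/- values for 11 of 44 collagen genes, against 9.72% of all genes, and below them for 1, Col10a1 (8.77% of all genes). The 11 were Col4a4, Col5a3, Col6a2, Col6a4, Col6a5, Col6a6, Col11a2, Col19a1, Col22a1, Col24a1 and Col27a1, of which only Col6a2 belonged to the group of 14. Their differences other than that of Col6a2 lay between 0.15 and 0.37, and none passed the test. Fezf1+/- 3, which was low for most collagens, was the lowest array for 9 of the 11, the exceptions being Col6a4 and Col19a1.

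**Figure D3:**
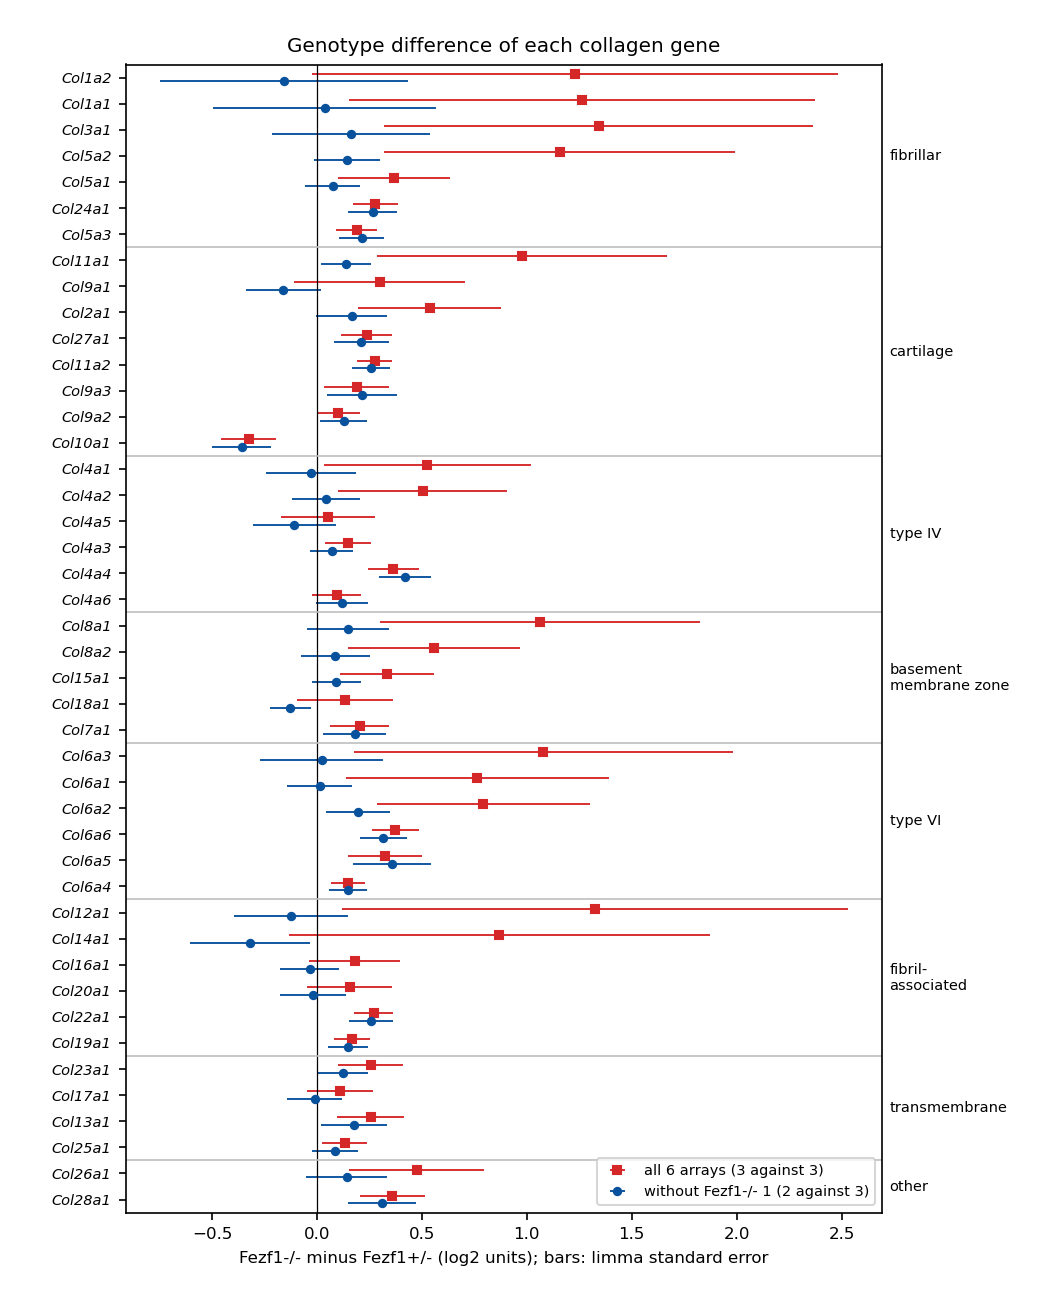
Fezf1-/- minus Fezf1+/- difference (log2 units) of each of the 44 collagen genes with its limma standard error, with all 6 arrays (red squares) and without Fezf1-/- 1 (blue circles). The fibrillar, type VI and fibril-associated genes at the top of their classes fall from differences near 1 to near 0 once that array is left out. Col8a1 falls likewise from 1.06 to 0.15 and Col11a1 from 0.98 to 0.14.

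Genes that make, bind and break down collagen were read from lists, and 0 members passed by limma in any of the 5 lists, with or without Fezf1-/- 1. At an unadjusted p below 0.05 stood 2 of 28 synthesis and processing genes, 1 of 9 receptors, 0 of 15 fibril-binding genes, 0 of 15 basement membrane partners and 1 of 12 degradation genes, against 9.48% of all genes. By the rule for named genes, these lists gave Loxl4 (0.49) and Adamts14 (0.30), Itga10 (0.37) and Itga11 (0.32), Tnc (0.83) and Fn1 (1.11), Lamc3 (0.27) and Nid2 (1.12), and Mmp16 (-0.38) and Mmp13 (0.71), each as its Fezf1-/- minus Fezf1+/- difference. Fezf1-/- 1 carried several of these. Without it Tnc stood at 0.10, Fn1 at -0.07, Nid2 at 0.08 and Mmp13 at 0.17, while Loxl4 was at 0.34, Adamts14 at 0.31, Itga10 at 0.32, Itga11 at 0.22, Lamc3 at 0.35 and Mmp16 at -0.43. On Fezf1-/- 1, 12 of 15 fibril-binding genes stood at least 2-fold above every other array, as did 8 of 12 degradation genes, 9 of 15 basement membrane partners, 4 of 9 receptors and 11 of 28 synthesis genes, against 4.00% of all genes.

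Within those lists, the genes named here were picked after their values were seen. They are examples of genes that did or did not move with the collagens on that array. Serpinh1, the collagen chaperone of the endoplasmic reticulum, stood at 9.55 there and between 7.17 and 7.76 elsewhere. Lox, which crosslinks fibrils, stood at 10.11 against 6.09 to 7.43, and Pcolce, which speeds the trimming of procollagen, at 9.14 against 5.61 to 6.62. Several other members of the synthesis list moved less. P4hb, a subunit of prolyl hydroxylase that also folds other proteins, was 0.55 above the highest other array, and the isomerase Ppib stood at 10.84 within 10.67 to 10.85. P4ha1, P4ha2 and P4ha3 were 0.38, 0.17 and 0.26 above the highest other array, Plod3 was 0.28 and Colgalt1 0.40. Mia3 was lowest on Fezf1-/- 1, at 8.81 against 9.33 to 9.77 elsewhere. In all, 11 of 28 genes of that list stood at least 2-fold above every other array. Pcolce2, a relative of Pcolce, was lower on Fezf1-/- 1 (8.32) than on the other arrays (9.51 to 10.01). The receptor Ddr2, which binds fibrillar collagen in fibroblasts, stood at 9.21 against 5.31 to 5.81, and Ddr1, its epithelial relative, at 8.71 against 8.20 to 8.49. Among fibril-binding genes, Bgn stood at 10.92 against 5.94 to 6.84 and Postn at 10.82 against 5.62 to 6.90. Among the measured laminin chains, which build basement membranes beside type IV collagen, the shifts against the mean of the other arrays ran from -0.01 for Lamc3 to 4.06 for Lama4. Between them lay 3.87 for Lama2, 3.41 for Lamb1, 2.57 for Lamc1, 1.49 for Lamb2, 1.18 for Lama1, 0.77 for Lamb3, 0.70 for Lama5 and 0.25 for Lama3.

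Markers of cell types beside the neurons were high on the same array, and their part in the collagen levels was not tested. On Fezf1-/- 1, 8 of 12 mesenchyme markers, 6 of 14 cartilage, 0 of 6 bone, 4 of 10 endothelium, 4 of 8 pericyte and smooth muscle, 9 of 10 myeloid and 4 of 7 ensheathing glia and Schwann markers stood at least 2-fold above every other array, against 4.00% of all genes. So did 1 of 3 erythroid, 0 of 5 keratinocyte and horizontal basal cell and 0 of 7 sustentacular and gland markers, while all 11 olfactory neuron markers were lowest there. Dcn and Lum, both past that margin, are in the mesenchyme list and in the fibril-binding list, so those counts share genes. By the rule for named genes, the lists gave Twist2 and Foxd1 (mesenchyme), Chad and Comp (cartilage), Sp7 and Alpl (bone), Cldn5 and Flt1 (endothelium), Higd1b and Cspg4 (pericytes), Cd68 and Csf1r (myeloid), Ngfr and S100b (glia), Hbb-y and Alas2 (erythroid), Krt15 and Icam1 (basal cells), Krt8 and Sec14l3 (sustentacular) and Adcy3 and Omp (neurons), none of which passed with all arrays. Without Fezf1-/- 1, 4 markers were lower in Fezf1-/- cells by limma: Omp (-1.12, adjusted p = 0.00702), Adcy3 (-0.93, adjusted p = 0.0432), Rgs5 of pericytes (-1.29, adjusted p = 0.0278) and Ermn of the sustentacular list (-0.96, adjusted p = 0.0240). They were 2 of 11 olfactory neuron, 1 of 8 pericyte and smooth muscle and 1 of 7 sustentacular and gland markers. The median differences of these lists were -0.09, 0.05 and -0.58, in the same order. Members also went the other way without passing, such as Gap43 of neurons at 0.35 and Higd1b of pericytes at 0.29. Over all 19938 genes, 333 were called lower and 198 higher in that fit. The summed linear signal of the mesenchyme list was 7502 on Fezf1-/- 1, against 786 to 1247 on the Fezf1+/- arrays and 755 to 865 on the other Fezf1-/- arrays. The cartilage list summed to 2153, against 717 to 918 and 811 to 909, and the bone list to 280.1, against 133 to 172 and 173 to 175. Of the bone markers, Ibsp, Phex and Mepe were dimmer than the lower quartile on all 6 arrays.

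The mesenchyme genes Pdgfrb and Prrx1 stood at 9.66 and 9.16 on Fezf1-/- 1 and between 5.62 and 6.18 and between 5.19 and 5.57 elsewhere. In cartilage, the proteoglycan gene Acan stood at 6.92 against 5.46 to 5.74, and the link protein gene Hapln1 at 7.80 against 4.80 to 5.52. These genes were named outside the rule, with their values known. Other members shifted less against the mean of the other arrays, such as Twist2 (0.41) and Tbx18 (0.56) of mesenchyme. In the cartilage list, Ucma (0.04), Snorc (0.15) and Comp (0.33) did so. Past the 2-fold margin stood 8 of 12 mesenchyme and 6 of 14 cartilage markers. The summed signals of the other lists on Fezf1-/- 1, the Fezf1+/- arrays and the other Fezf1-/- arrays were 1108, 358 to 511 and 388 to 403 for endothelium, and 2672, 692 to 1169.8 and 498 to 525 for pericytes and smooth muscle. They were 3380.0, 448 to 614 and 491 to 493 for myeloid cells and 5584, 671 to 1006 and 777 to 795 for ensheathing glia and Schwann cells. A linear sum weighs its brightest members most. In the glia list Fabp7 stood at 11.90 on Fezf1-/- 1 against 6.74 to 8.32 elsewhere, while Ngfr stood at 5.94 against 5.49 to 6.04. Erythroid markers summed to 1018, 121 to 149 and 110.2 to 156, and basal cell markers to 1597, 594 to 1258 and 955 to 1057. Of the 7 listed erythroid genes, 3 were measured, and they were uneven. On Fezf1-/- 1, Alas2 stood at 9.78 against 4.77 to 6.08 elsewhere and Slc4a1 at 6.72 against 5.50 to 5.78. Hbb-y stood at 4.95, within its 4.91 to 5.39 on the other arrays. Sustentacular and gland markers summed to 17206, 10179 to 12728 and 8205 to 9069, and olfactory neuron markers to 12278, 27688 to 32864 and 29112 to 30483. On the 5 other arrays, Fezf1+/- 3 had the lowest median deviation for 8 of the 11 marker lists, -0.20 for mesenchyme and -0.48 for keratinocytes and horizontal basal cells among them, and the highest for olfactory neurons, at 0.18. These are deposited values, in which Fezf1+/- 3 had the lowest array median (5.82). The marker lists were not recomputed after centring or quantile normalization.

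**Figure D4:**
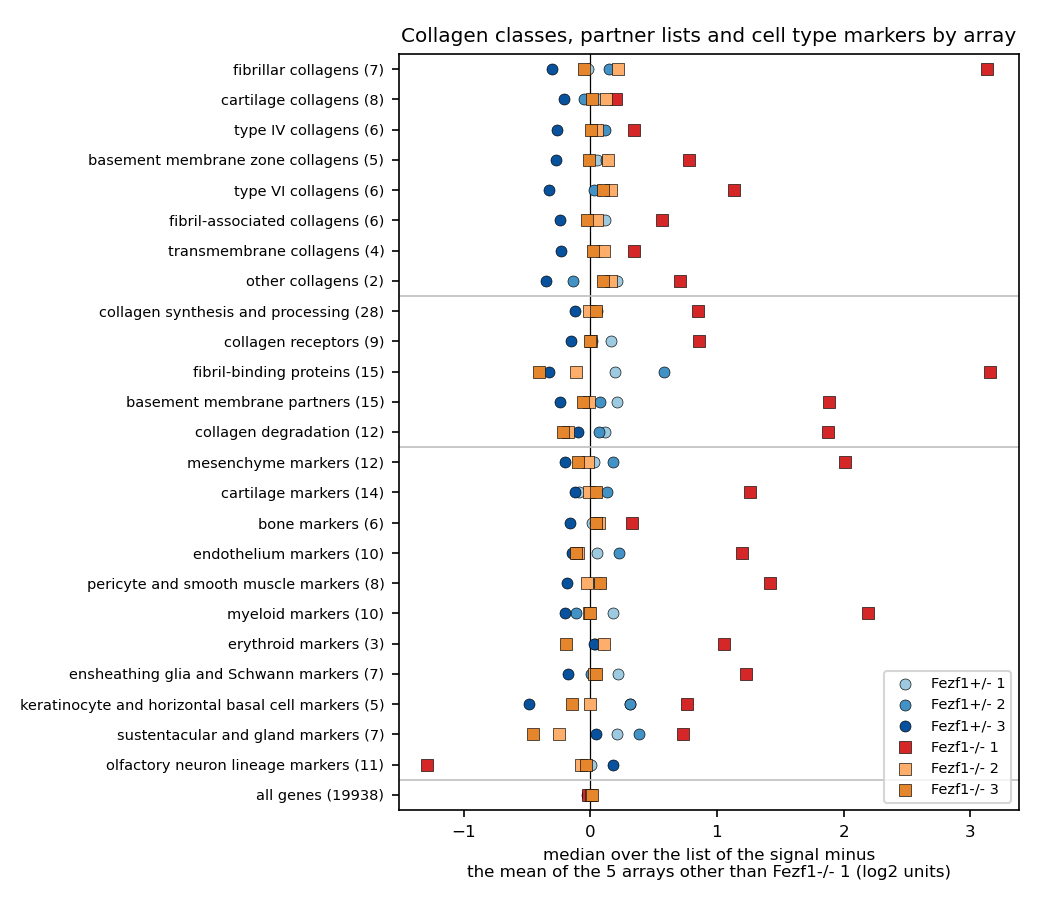
Median deviation (log2 units) of each array from the mean of the 5 arrays other than Fezf1-/- 1, for the collagen classes, the partner lists and the cell type markers, with the number of measured genes in parentheses. Fezf1-/- 1 (red squares) lies at 3.13 for fibrillar and 0.21 for cartilage collagens, at 2.01 for mesenchyme markers and at -1.29 for olfactory neurons, while all genes together lie at -0.01.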

How the data were processed

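Total RNA from 3 Fezf1+/- and 3 Fezf1-/- samples of sorted cells, purified with the Qiagen RNeasy Plus Micro kit, was measured on Affymetrix Mouse Gene 1.0 ST arrays, per the labels' protocols. The values are log2 signals as the authors deposited them, for which the submitters' processing notes name Affymetrix Expression Console and GCRMA. The base is not stated and was taken as log2 because the array maxima, near 14.5, exceed the natural log of a 16-bit scan (11.1). Versions are not given in the sources used here. Depth has no counterpart on arrays, and their number limits the precision.

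Of 35557 probe sets, 21789 carried 1 symbol in the platform annotation, 1621 several and 12147 were not listed there. Symbols were updated through RefSeq where possible (21698 matched), and the probe set with the highest mean over the 6 arrays was kept for each gene, which left 19938 genes. Col6a5 and Col6a6 were the 2 collagen genes with more than 1 probe set. The genotype comparison used limma (version 3.58.1, R 4.3.3) over all genes, with Benjamini-Hochberg adjustment and a threshold of 0.05. No filter was applied. An exact permutation test of 3 against 3 arrays cannot go below 0.1. A margin of 2-fold over the highest other array describes single arrays and has no test.

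Array values are given for collagens past the threshold, at least 2-fold above or below all other arrays on Fezf1-/- 1, or named as defining chains of a class. Of each list of partners (5 lists) or cell type markers (11 lists), the rule names up to 4 members past the threshold, or the 2 with the smallest p. The members, the 8 classes and the lists were chosen with earlier results of these data known. On simulated data with 200 of 19938 genes changed, limma recovered 73% of 2-fold and 96% of 4-fold changes with 6 arrays, and 62% and 85% without Fezf1-/- 1. The simulated spread was that of the Fezf1+/- arrays, shuffled over genes, so no simulated array stood apart as Fezf1-/- 1 did. For collagens the real SD over the Fezf1-/- arrays reached 2.21 for Col1a1 and 2.44 for Col1a2. These shares therefore do not give the recovery of collagen changes with all 6 real arrays. Alternatives were quantile normalization, median centring, a filter on dim genes, the mean of probe sets, left-out arrays, limma's trend and robust options, array weights and a replicate block.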

Additional observations from a re-analysis of the deposited data

How the results depend on the processing

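The count of collagen genes past limma's threshold was 0 under all 14 other settings, and none of the 21 collagen genes recomputed singly passed in the settings they were refitted in, which leave out the removal of 2 arrays together (lowest adjusted p = 0.204). Over all genes the count was 110, and it was 24 for genes above the median mean, 740 with array weights, and between 40 and 531 with 1 array left out, the highest without Fezf1-/- 1 (69, 55 and 45 without Fezf1+/- 1, 2 and 3, and 40 and 51 without Fezf1-/- 2 and 3). The count of 14 collagens at least 2-fold high on Fezf1-/- 1 was 12 with that filter on dim genes and 14 or 15 otherwise.

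With the filter on dim genes, which leaves fewer genes in each class, the median difference was 0.51 for type IV and 0.87 for fibril-associated collagens. The median shift of Fezf1-/- 1 was then 3.70 for fibrillar, 0.71 for cartilage, 1.52 for type IV, 1.51 for basement membrane zone, 2.26 for type VI, 3.38 for fibril-associated and 1.08 for other collagens. Without Fezf1-/- 1 the median difference of cartilage collagens was 0.15, the lowest of a leave-one-out range up to 0.30. It fell from 1.16 to 0.14 for fibrillar, from 0.57 to 0.17 for type VI, from 0.34 to 0.09 for basement membrane zone and from 0.26 to 0.06 for type IV collagens. It turned from 0.22 to -0.03 for fibril-associated collagens, from 0.75 to -0.28 for fibril-binding genes, from 0.49 to -0.09 for basement membrane partners and from 0.34 to -0.23 for degradation genes, and was 0.06 for synthesis genes, 0.09 for receptors, 0.11 for transmembrane and 0.23 for other collagens.

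With 1 array left out, differences ran from -0.12 to 2.18 for Col12a1, -0.32 to 1.498 for Col14a1, -0.0111 to 0.19 for Col17a1, -0.13 to 0.30 for Col18a1, -0.16 to 2.13 for Col1a2, -0.0267 to 0.80 for Col4a1, -0.15 to 0.17 for Col4a5 and -0.16 to 0.56 for Col9a1. Without Fezf1-/- 1 all 8 were negative, with Col4a5 at -0.11, and without Fezf1+/- 3 so were Col17a1 (-0.0059) and Col4a5. With array weights they were -0.0115, -0.32, -0.0333, -0.13, -0.14, -0.0296, -0.12 and -0.17 in the same order. The array weight of Fezf1-/- 1 was 0.136, and the cause of these turns beyond that array's own values was not tested.

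Leaving out Fezf1-/- 1 and Fezf1+/- 3 together was chosen after seeing the data. It gave 618 calls over all genes by limma, 1 each among fibril-binding genes, basement membrane partners and degradation genes, and 0 among collagens. Of the collagens, 6 had an unadjusted p below 0.05 by limma, and the lowest adjusted p was 0.0559. The share of all genes at that unadjusted level was not computed for this fit, so the 6 have no background beside them. Median differences were then 0.0648 for cartilage, -0.0425 for type IV, 0.10 for type VI, -0.14 for fibril-associated and 0.10 for other collagens, and 0.0204 for receptors.

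The labels number the arrays 1 to 3 in each group and do not say whether a number marks a shared source. Deviations of same-numbered arrays from their group means had correlations of 0.23, -0.33 and 0.54. Such deviations are tied to each other within a group, and Fezf1-/- 1 lies far from the rest of its group. The correlations therefore cannot decide whether same-numbered arrays share a source. With the replicate block 88 genes passed and 0 collagens. With 3 arrays a group, small differences could not be resolved.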
